A study of Mus musculus with 3 samples.

Results

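The Sprouty and Spred genes encode intracellular inhibitors of receptor tyrosine kinase signalling. All 7 members were on the arrays (Spry1, Spry2, Spry3, Spry4, Spred1, Spred2 and Spred3), with 12 of the 41174 probes, each spotted once per array. Every non-control probe whose gene name in the scanner files is one of these symbols was taken. Naming the probes through RefSeq records added 0 further probes. The study compared Fgf3-/-;Fgf10-/- (double null) with Fgf3+/-;Fgf10+/- (double heterozygote) otic placodal ectoderm, microdissected from untreated mouse embryos of 4 to 8 somites. Both genotypes thus carry at least 1 mutant copy of Fgf3 and of Fgf10, and no wild-type placodes are among the samples described here. Each of the 3 arrays carried 1 pool of 10 double null placodes, labelled with Cy5, and 1 pool of 10 double heterozygote placodes, labelled with Cy3. The dyes were never swapped, so a dye effect of a probe and the genotype cannot be told apart.

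Fibroblast growth factors bind receptor tyrosine kinases that activate the Ras, Raf, MEK and ERK cascade, and ERK in turn raises transcription of genes that damp the cascade. Sprouty proteins share a cysteine-rich C-terminal domain and act on the cascade at several points near Ras and Raf. Spred proteins carry the same type of domain behind an N-terminal EVH1 domain, and bring the Ras GTPase-activating protein neurofibromin to the membrane. In the mouse, Spry1 and Spry2 are known to limit the size of the otic placode.

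The scanner software marked 27284 to 29177 spots of an array as well above background for the double null pool, and 26452 to 28258 for the double heterozygote pool. The log2 ratios of pairs of arrays correlated across 25506 probes with r between 0.36 and 0.41, and probes are not independent replicates. In all, 25515 probes were tested. Of these, 74 passed the threshold (limma, Benjamini-Hochberg adjusted p under 0.05) as lower in the double null, 0.290% of the probes tested, and 310 as higher, 1.21%. In all 1.50% passed in either direction. Of the 384 calls, 225 lay among the brightest probes, 222 of them higher: the 757 tested probes of mean log2 intensity over 15 had a median log2 ratio of 0.19, against medians between -0.033 and 0.021 in the dimmer ranges. The tested member probes lay between 7.26 and 12.71 on that scale. The median ratio of the probes in their unit-wide intensity bins was between -0.011 and 0.022.

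The sequences below are the first 30 of the 60 bases of the probes on which the results turn, from the scanner files, 5′ to 3′. They are the only Spred3 and Spry1 probes, and probes of Spred1 and Spred2, which did not give the same ratio within a gene. Their 60 bases hold between 35% and 41.7% G and C.
Spred3 (NM_182927): tgtgtcacttcctttaaattattaactatt
Spry1 (NM_011896): agctgagtatttccaacccttcctgtgttt
Spred1 (NM_033524, probe A_52_P637689): acagttgttaccagtgaaccttacagaagc
Spred1 (AK017680): ctggctgagagttgtgagtatatcatgtaa
Spred2 (NM_033523): ctgtgaacaagttccagatgaaaaacacag
Spred2 (AK157817): cagattttatttttatatccatggtaacag
In the coordinates of the files, on mouse build mm7, the Spred3 probe lies on the minus strand at chr7:26098932-26098991 and the Spry1 probe on the plus strand at chr3:37455053-37455112. The Spred1 probes shown lie on the plus strand at chr2:116912833-116912892 and chr2:116922962-116923021, in the order given, and the Spred2 probes on the plus strand at chr11:19974356-19974415 and chr11:19975721-19975780. The 60-base sequence of the Spred1 probe A_52_P637689 can be read in 1 sense frame without a stop codon, and that of AK017680 in 0. The Spred3 probe likewise has 0 such frames, and the Spry1 probe has 2. Exon and UTR annotation on mm7 was not used here.

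Spred3 was lower in double null than in double heterozygote placodes on all 3 arrays, and it was the only member to pass the threshold in the main processing. Spred3 encodes a Spred protein that, unlike Spred1 and Spred2, lacks a functional binding domain for the receptor Kit. Its normalized intensity was 318, 370.4 and 379 in the double null pools of arrays 1, 2 and 3, against 470.0, 519.6 and 453 in the double heterozygote pools. The 2 genotypes did not overlap, and the highest double null pool lay below the lowest double heterozygote pool. Probes without overlap and lower in the double null made up 6.90% of all probes tested. The log2 ratios were -0.56, -0.49 and -0.26, with a mean of -0.44 ± 0.07 (moderated SE, n = 3 arrays). This is a fold of 0.739 with a 95% interval of 0.658 to 0.830 (limma adjusted p = 0.0427 over all probes).

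Among 25515 tested probes the Spred3 ratio was the 64th lowest, and its unadjusted p of 5.64e-04 the 336th smallest. The probe was detected for both genotypes on each array. With the scanner software's own processed intensities, its values were 137, 171 and 185 in the double null and 231, 261 and 235 in the double heterozygote. Its mean log2 ratio was then -0.57, with limma adjusted p = 0.208. The call was near the threshold: it was kept in 12 of 22 alternative settings, while the ratio stayed below 0 in all 22. These settings are not independent checks. Scaling of intensities between arrays (Aquantile) left the ratio as it was, and a threshold of 0.10 could only keep the call. Changing the filter on dim probes, keeping outlier-marked spots and an intensity trend in the prior also kept the call at an unchanged ratio. So did taking the brightest probe or the mean of all probes of a gene, rules that cannot alter the ratio of a gene with 1 probe. Median centring of each array and centring on the tested probes, which kept it, called 19495 and 13933 of the 25515 probes. The processed intensities and the ratios the authors deposited, which lost it, are the same data. The call was lost without replicate 1 (-0.37, adjusted p = 0.0923), without replicate 2 (-0.41, adjusted p = 0.131) and without replicate 3 (-0.53, adjusted p = 0.0632). It was also lost, at the same ratio, when the 757 probes brighter than 15 on the log2 scale were left out of the fit (adjusted p = 0.108).

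**Figure D1:**
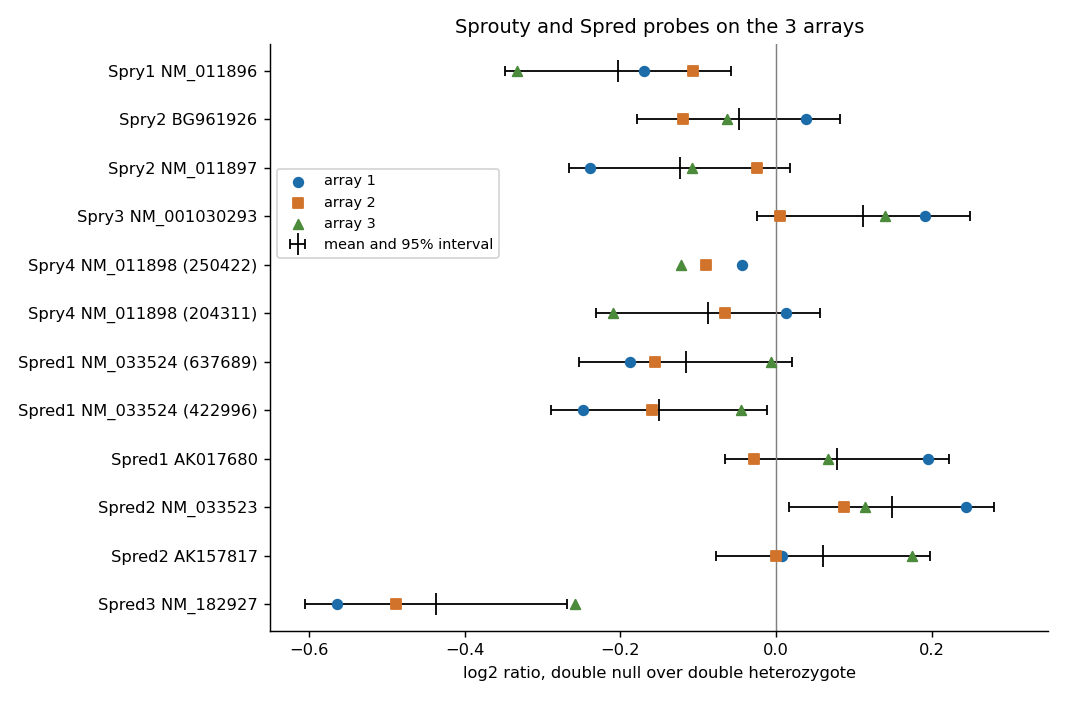
Log2 ratio (double null over double heterozygote) of each Sprouty and Spred probe on the 3 arrays, with the mean and 95% moderated interval of the 11 tested probes. Probe IDs in brackets separate probes of 1 transcript; the 3 Spred3 values lie between -0.56 and -0.26, and the undetected Spry4 probe has no interval.

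Spry1 had the lowest ratio of the Sprouty genes but did not pass. It encodes a Sprouty that is induced by FGF and other growth factors. Its normalized intensity was 3908, 3710.3 and 4085 in the double null pools, against 4395, 3996 and 5145 in the double heterozygote pools. Every double null pool was below its partner on the same array, but the genotypes overlapped, since the double null pool of array 3 lay above the double heterozygote pool of array 2. The log2 ratios were -0.17, -0.11 and -0.33, with a mean of -0.20 ± 0.06 (SE, n = 3) and a 95% interval of the fold of 0.785 to 0.961. The unadjusted limma p was 0.0137 and the adjusted p 0.150. With median centring of each array in place of loess, its ratio turned to 0.28. In that setting the medians of all tested probes lay at 0.36, 0.32 and 0.30 on arrays 1, 2 and 3. On array 3 the Spry1 ratio was below that of Spred3 (-0.26), whereas on arrays 1 and 2 Spred3 had the lowest ratio of all members.

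Spry2, which with Spry1 limits the otic placode, was measured by 2 probes whose starts lie 516 bases apart on chromosome 14. The brighter probe (BG961926) had normalized intensities of 4155, 4647 and 4165 in the double null, against 4045, 5049 and 4349 in the double heterozygote. Its ratio was above 0 on array 1 and below 0 on arrays 2 and 3. The mean was -0.05 ± 0.05 (SE, n = 3), with a 95% interval of the fold of 0.884 to 1.06 and limma adjusted p = 0.656. The dimmer probe (NM_011897) had intensities of 407, 509 and 462 in the double null, against 479.9, 518 and 498 in the double heterozygote. It was lower in the double null on all 3 arrays with overlapping genotypes, with ratios of -0.24, -0.025 and -0.11 and adjusted p = 0.296. With median centring the ratios of the BG961926 and NM_011897 probes of Spry2 turned to 0.44 and 0.13. The tested-probe medians were then 0.36, 0.32 and 0.30 on the 3 arrays.

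Spry4, another Sprouty induced by FGF signalling, was detected by 1 of its 2 probes. The detected probe had normalized intensities of 222, 224 and 199 in the double null, against 220.2, 235 and 229.7 in the double heterozygote. The genotypes overlapped, and the ratio was above 0 on array 1 (0.012) and below 0 on array 2 (-0.066) and array 3 (-0.21). Its mean of -0.09 ± 0.06 (SE, n = 3) had a 95% interval of the fold of 0.852 to 1.04 and limma adjusted p = 0.452. The other Spry4 probe, of which the files place only 14 of 60 bases on mm7, was not well above background in either channel on any array, and it was not tested and gets no fold.

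Spry3, a Sprouty gene whose probe the files place on an unplaced mm7 sequence, had the dimmest of the tested member probes. Its normalized intensity was 158, 150.1 and 169 in the double null, against 138, 149.6 and 153 in the double heterozygote. Each double null pool was above its partner, by 0.0051 on the log2 scale on array 2, and the genotypes overlapped. The mean log2 ratio was 0.11 ± 0.06 (SE, n = 3), with a 95% interval of the fold of 0.983 to 1.19 and limma adjusted p = 0.322.

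**Figure D2:**
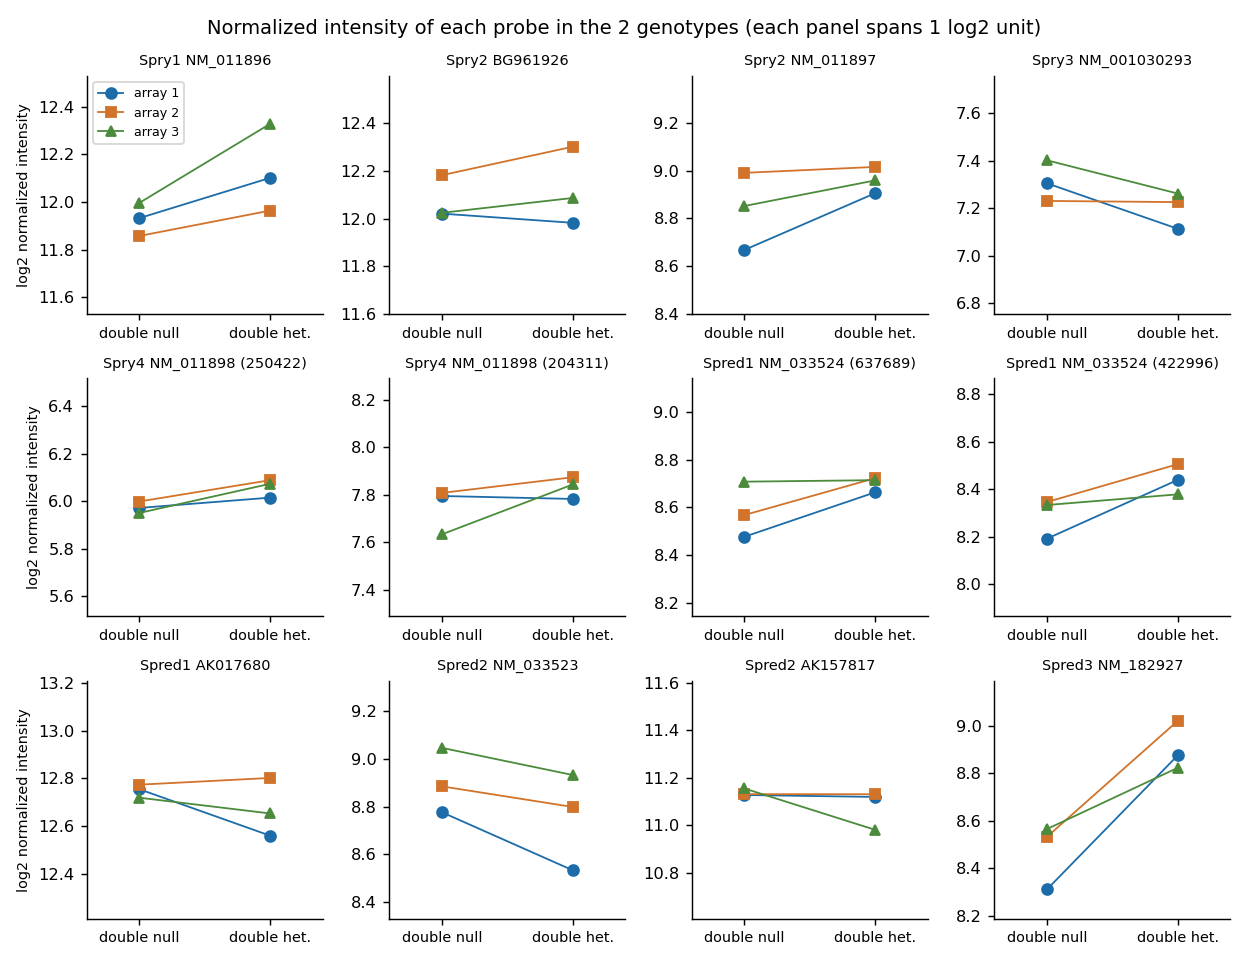
Log2 normalized intensity of each probe in double null (left) and double heterozygote (right) pools, with a line joining the 2 pools of 1 array. Every panel spans 1 log2 unit around its own centre, so slopes can be compared but levels of different probes cannot; the steepest slopes on arrays 1 and 2 are those of Spred3.

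Spred1 encodes the Spred whose human loss-of-function mutations cause Legius syndrome, and its 3 probes did not share a sign. The NM_033524 probe A_52_P637689 had normalized intensities of 356, 379.6 and 418 in the double null, against 406, 423 and 420.2 in the double heterozygote. The NM_033524 probe A_51_P422996 had 292, 325 and 323 in the double null, against 347, 363 and 333 in the double heterozygote. Both NM_033524 probes were lower in the double null on all 3 arrays, as were 19.2% of all probes tested. The genotypes did not overlap for A_51_P422996, and 6.90% of all probes were likewise lower without overlap. The mean log2 ratios of the 2 NM_033524 probes were -0.12 ± 0.06 and -0.15 ± 0.06 (SE, n = 3 each), with limma adjusted p = 0.308 and 0.219. They turned to 0.10 and 0.025 with median centring, where the tested-probe medians were 0.36, 0.32 and 0.30 on the 3 arrays.

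The AK017680 probe of Spred1, the brightest of all member probes, had 6912, 7004 and 6743 in the double null, against 6036, 7143 and 6440.1 in the double heterozygote. It was higher in the double null on arrays 1 and 3 and lower on array 2, with a mean log2 ratio of 0.08 ± 0.06 (SE, n = 3, limma adjusted p = 0.504). The start of this probe lies 10129 bases downstream of that of A_52_P637689. On every array its ratio was above those of both NM_033524 probes. The difference from A_51_P422996 was largest on array 1, where A_51_P422996 minus AK017680 was -0.44, and was -0.13 on array 2 and -0.11 on array 3. The differences of A_52_P637689 from AK017680 were -0.38, -0.13 and -0.073 on the 3 arrays. These differences between probes were not tested.

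Spred2 encodes a widely expressed Spred protein, and its 2 probes were the only tested probes of a gene with more than 1 that were both above 0. The NM_033523 probe had normalized intensities of 438, 473 and 529 in the double null, against 370.1, 445 and 489 in the double heterozygote. Every double null pool was above its partner, and the genotypes overlapped across arrays. The log2 ratios were 0.24, 0.087 and 0.11, with a mean of 0.15 ± 0.05 (SE, n = 3), an unadjusted limma p of 0.0327 and an adjusted p of 0.208. The 95% interval of the fold was 1.01 to 1.21.

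The AK157817 probe of Spred2 had 2237, 2243 and 2280.3 in the double null, against 2225, 2243 and 2021 in the double heterozygote. Its ratio was 0.0081 on array 1, 0.00030 on array 2 and 0.17 on array 3, so nearly all of the difference came from array 3. The mean of 0.06 ± 0.06 (SE, n = 3) had limma adjusted p = 0.586.

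The ratios of the family lay on both sides of 0. Of the 11 tested probes, 1 was called lower and 0 higher with limma, against 0.290% and 1.21% of all probes. At an unadjusted p under 0.05, 3 were lower and 1 higher, against 8.37% and 11.9% of all probes. The ratio was below 0 on all 3 arrays for 5 of the 11 and above 0 on all 3 for 3, against 19.2% and 24.5% of all probes. Normalized values did not overlap between the genotypes, with the double null lower, for 2 of the 11, the Spred3 probe and the Spred1 probe A_51_P422996, against 6.90% of all probes. None of the 11 was higher without overlap, against 9.48% of all probes. The median of the 11 mean ratios was -0.09 and that of all tested probes 0.010. The 5 tested Sprouty probes had a median of -0.09, with a range of -0.20 to 0.11, and the 6 Spred probes a median of -0.03, with a range of -0.44 to 0.15.

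The 10 tested member probes other than Spred3 had mean log2 ratios between -0.20 and 0.15, and their 95% intervals all lay within folds of 0.785 to 1.21. On array 1 these 10 ranged from -0.25 to 0.24, while Spred3 was at -0.56. On array 2 they ranged from -0.16 to 0.087, while Spred3 was at -0.49. On array 3 they ranged from -0.33 to 0.17, a range that holds the Spred3 value of -0.26. Spred3 therefore stood below the other members on arrays 1 and 2 and among them on array 3.

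**Figure D3:**
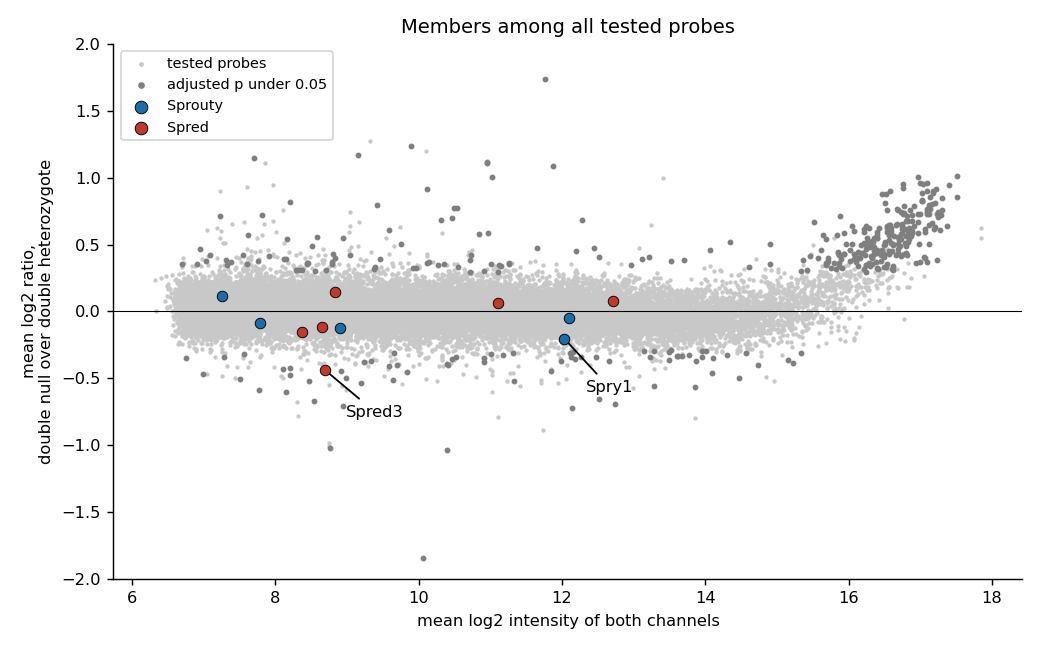
Mean log2 ratio (double null over double heterozygote) against mean log2 intensity for the 25515 tested probes, with probes past an adjusted p of 0.05 in dark grey and the members in colour. The tested member probes lie at intensities of 7.26 to 12.71, left of the bright range over 15 that holds 225 of the 384 called probes.

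The pattern of Spred3 over the 6 normalized channel values (3 double null and 3 double heterozygote pools) was compared with that of 25505 other tested probes. The highest Pearson correlations were those of Creb3l2, a transcription factor gene (r = 0.997), Derl1, a gene of endoplasmic reticulum protein degradation (r = 0.995), and the transcript named AK007113 in the files (r = 0.995). Their log2 ratios were -0.11, -0.24 and -0.21, with limma adjusted p = 0.273, 0.0943 and 0.134. In all, 83 probes had r over 0.95. The 6 values come from 3 arrays whose channels share a spot, so these correlations are a description. Among the members, the Spred1 probe A_51_P422996 had r = 0.96 with Spred3 and A_52_P637689 had r = 0.82, whereas AK017680 had r = -0.28.

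Genes whose products act with Sprouty and Spred proteins were examined next, in lists chosen with earlier results of these data known. Of proteins that bind or modify Sprouty or Spred, 12 of 12 genes were tested with 23 probes. With limma 0 were lower and 0 higher at the threshold, against 0.290% and 1.21% of all probes. At an unadjusted p under 0.05, 3 were lower and 2 higher, against 8.37% and 11.9% of all probes. The median log2 ratio of the list was 0.00089. The lowest p was that of a probe of Cav1, the gene of the membrane scaffold caveolin-1, with a log2 ratio of -0.28 ± 0.06 (SE, n = 3, limma adjusted p = 0.0862). The other Cav1 probe was not well above background in either channel on any array, and it was not tested. Next by p was a probe of Cbl, a ubiquitin ligase that binds phosphorylated Sprouty, at 0.19 ± 0.05 (adjusted p = 0.119), while the second Cbl probe was at 0.026. Nf1, which encodes the Spred partner neurofibromin, had tested probes at -0.13 (adjusted p = 0.221) and 0.0067 (adjusted p = 0.969).

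Of the FGF receptor to ERK cascade, 24 of 24 genes were tested with 52 probes. Limma called 0 lower and 0 higher, against 0.290% and 1.21% of all probes. At an unadjusted p under 0.05 there were 5 lower and 6 higher, against 8.37% and 11.9% of all probes. The median ratio was 0.013. A probe of the kinase gene Araf had a log2 ratio of -0.17 ± 0.05 (SE, n = 3, adjusted p = 0.149), and the second Araf probe was at 0.15.

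Of other FGF and ERK feedback and response genes, 16 of 17 were tested with 25 probes. Of these probes limma called 2 lower and 0 higher, against 0.290% and 1.21% of all probes. At an unadjusted limma p under 0.05 there were 6 lower and 3 higher, against 8.37% and 11.9% of all probes. The median ratio was -0.05. Dusp6, which encodes an ERK phosphatase, had normalized intensities of 19998, 18612 and 18499 in the double null, against 26223, 25843 and 28774 in the double heterozygote. Its log2 ratios were -0.39, -0.47 and -0.64 (adjusted p = 0.0169), so it was lowest on array 3, where Spred3 was least reduced. Ccnd1, which encodes cyclin D1, had 10367, 11377 and 11954 in the double null, against 13617, 14419.9 and 14263 in the double heterozygote. Its log2 ratios were -0.39, -0.34 and -0.25 (adjusted p = 0.0427). Neither gene overlapped between the genotypes. Probes without overlap and lower in the double null made up 6.90% of all probes tested. Like Spred3, both genes lost their calls with the scanner's processed intensities. With 1 array left out, 1 gene of the list was called each time: Dusp6 without replicate 1, Phlda1 (lower) without replicate 2 and Ier3 (higher) without replicate 3.

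**Figure D4:**
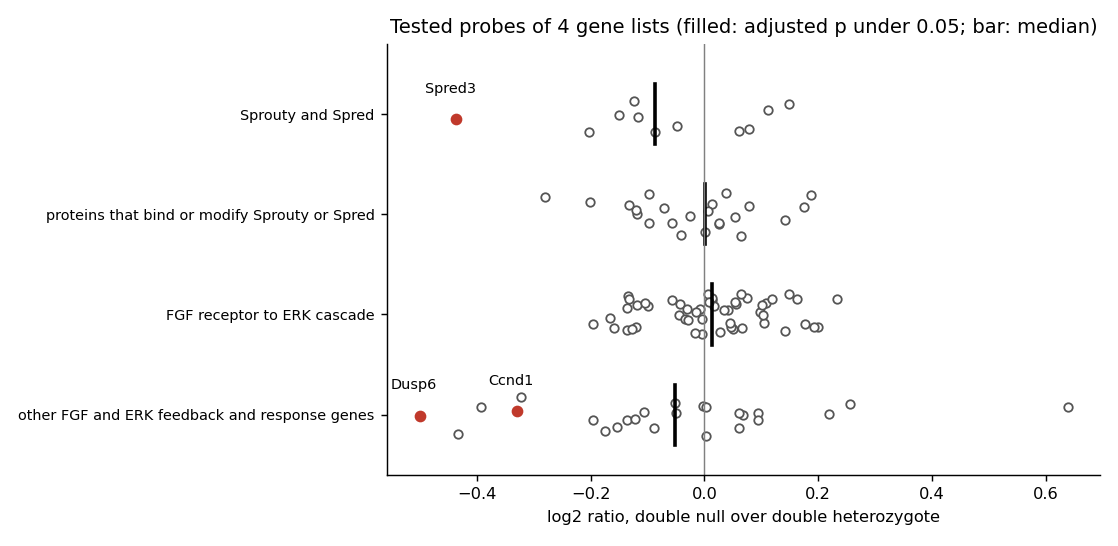
Mean log2 ratio (double null over double heterozygote) of every tested probe of the members and of 3 pathway lists; filled points passed an adjusted p of 0.05 and bars are medians. Spred3, Dusp6 and Ccnd1 are the filled points, at -0.44, -0.50 and -0.33.

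Lists of markers of the otic placode and of neighbouring tissues were examined in the same fit. In that fit limma called 0.290% of all tested probes lower and 1.21% higher. At an unadjusted p under 0.05 the shares of all probes were 8.37% lower and 11.9% higher. In bulk tissue, fewer cells of a type and less RNA per cell cannot be told apart. Of the otic placode markers, 10 of 11 genes on the arrays were tested with 16 probes, of which 3 were lower and 0 higher. At an unadjusted p under 0.05 there were 12 lower and 0 higher. All 16 ratios were below 0, against 46.0% of all probes, and the list's median was -0.41, beside -0.44 for Spred3. Pax2, a defining otic gene, was well above background on 2 of 3 arrays for both genotypes and was not tested. The summed normalized intensity of the otic list was 31261 to 35116 in the double null and 40270.0 to 49944 in the double heterozygote, and its median log2 ratios on arrays 1, 2 and 3 were -0.43, -0.14 and -0.36. Of the blood and endothelial markers, 8 of 10 genes were tested with 9 probes. With limma 0 were lower and 0 higher, and at an unadjusted p under 0.05 there were 0 lower and 5 higher. Hbb-y, which encodes an embryonic globin, was not tested, being well above background on 2 of 3 arrays for both genotypes, with log2 ratios of 0.52, -0.030 and 1.60. Gata1, an erythroid transcription factor gene, was not tested either, being well above background on 2 arrays for the double null and on 1 for the double heterozygote. The summed intensity of that list was 6392 to 15816 in the double null and 6341 to 7408 in the double heterozygote, and its median log2 ratios were 1.14, -0.022 and 0.18. The Spred3 log2 ratios on arrays 1, 2 and 3 were -0.56, -0.49 and -0.26, and their relation to either list was not tested.

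Of the remaining marker lists, endoderm had 1 of 7 tested probes called lower and 0 higher, against 0.290% and 1.21% of all probes. Surface ectoderm (11 probes), hindbrain and neural plate (10) and head mesenchyme and neural crest (13) had 0 called in either direction. At an unadjusted p under 0.05 these 3 lists had 2, 2 and 3 lower and 0, 0 and 3 higher. Endoderm had 3 lower and 1 higher at that cut, and the shares of all probes were 8.37% and 11.9%. The median log2 ratios of the 3 lists without a call were -0.11, -0.11 and -0.0093, and that of endoderm was -0.16. The lower endoderm probe is that of Sox17. The summed intensity of the endoderm list was 5157 to 5524 in the double null and 5107 to 6413 in the double heterozygote. That of surface ectoderm was 97403 to 113741 in the double null and 109971 to 122308 in the double heterozygote. For hindbrain it was 62417 to 70514 in the double null and 65586 to 83875 in the double heterozygote, and for head mesenchyme 36503 to 43618 in the double null and 40372 to 44814 in the double heterozygote. The part of any of these markers in the Spred3 result was not tested.

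**Figure D5:**
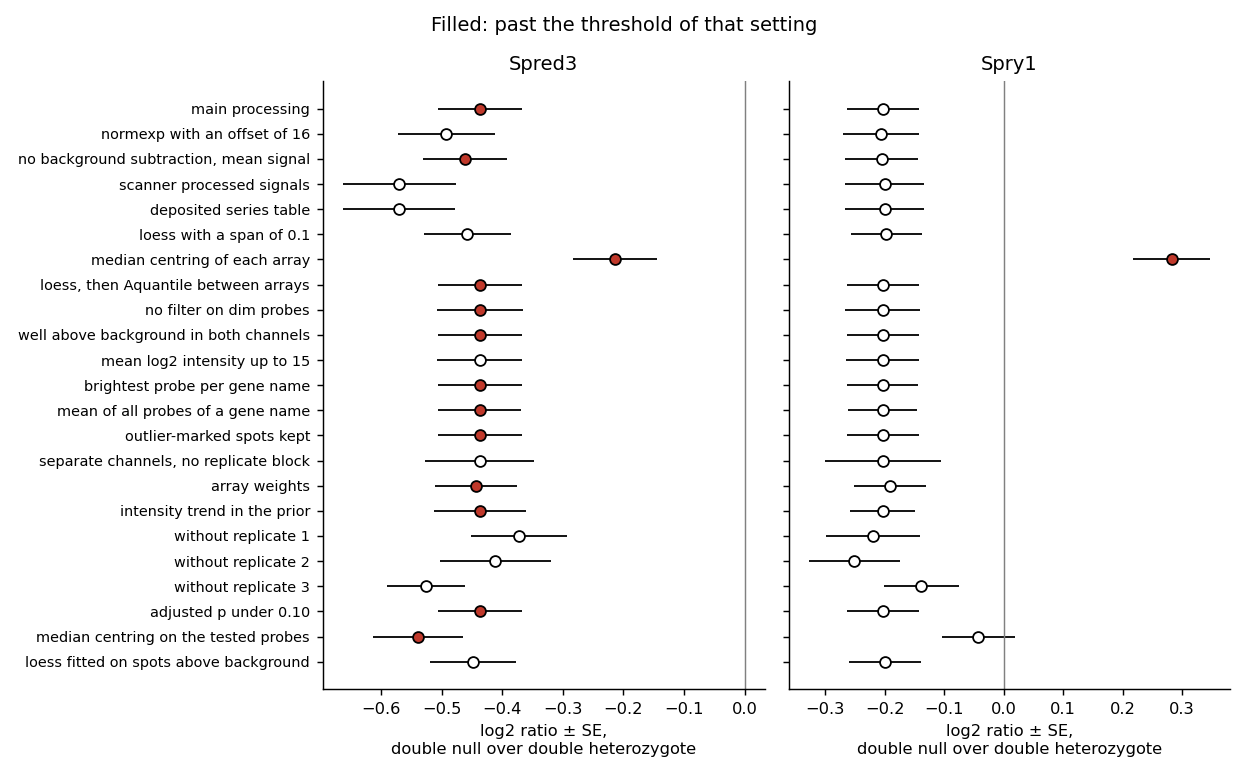
Mean log2 ratio (double null over double heterozygote) with its SE for the Spred3 and Spry1 probes under the main processing and 22 alternatives; filled points passed the threshold of that setting. Spred3 stays below 0 throughout, and Spry1 turns to 0.28 with median centring of each array, where the tested-probe medians were 0.36, 0.32 and 0.30.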

How the data were processed

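Per the labels' protocols, total RNA of each pool was labelled with Agilent's 2-colour low-input linear amplification kit. Per the submitters' processing notes, the authors read the scans with Agilent Feature Extraction (version 9.5.1.1). Per the file headers, each spot has an unnormalized mean intensity and local background intensity. The deposited files also give an intensity the software had corrected for background and dye (the processed intensity) and a log10 ratio whose numerator is Cy5. A table of log2 ratios that the authors deposited for the whole series equalled those log10 ratios converted to log2 within 2.01e-06. Its column medians were -0.012, -0.0082 and -0.0031, and the match settles its scale and direction.

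Background was corrected with normexp (offset 50), and ratios were normalized within arrays by loess (span 0.3, control spots at weight 0). Outlier-marked spots, 143 to 175 per array, were left out, and at most 1 spot per array was saturated. A probe was kept if well above background in 1 channel on all 3 arrays. The mean ratio of each of 25515 probes was compared with 0 by lmFit and eBayes of limma 3.58.1 (R 4.3.3), adjusted over all of them by Benjamini-Hochberg. The fit was tested on simulated data. Normalized intensities are channel values after loess and Aquantile, in the array's own units. For arrays, their number limits the precision. Of 41174 probes, 22951 were named by RefSeq accession, 6659 by symbol and 3109 by synonym (GRCm38.p6, names only), and 8455 kept the files' name.

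Named are all member probes, genes of the 3 pathway lists with a called probe or otherwise the 2 of lowest p in a list, and the 3 closest matches of the member of lowest p. Nf1, Phlda1, Ier3 and Sox17 were named outside this rule after their values were seen. Some items the rule takes are not reported here. The members and lists were chosen with earlier results of these data known. Alternatives covered background, signal, normalization, filters, probe rules, pairing, variance, left-out arrays and the threshold.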

Additional observations from a re-analysis of the deposited data

How the results depend on the processing

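Of the 22 alternatives, centring on the tested probes and loess on spots above background were added after seeing the data. Over all probes there were 384 calls, 80.7% of them higher. The count was 199 at a normexp offset of 16 (90.5% higher), 31 with a span of 0.1, 233 with loess on spots above background, 21 up to intensity 15 (1 lower, 20 higher), 185 with the channels fitted separately, that is with no replicate block (93.5% higher), 993 when the prior followed intensity (64.0% higher), and 1082 at the looser threshold of 0.10 (65.2% higher). Leaving out an array gave 87 to 305 calls, the fewest without replicate 3 (94.3% higher), and 232 without replicate 2. With limma 0 were called from processed signals (4418 at unadjusted p under 0.05) and 0 from the series table (4471). Median centring of each array gave 19495 (2301 lower, 17194 higher), with tested-probe medians at 0.36, 0.32 and 0.30, and centring on the tested probes 13933 (7622 lower, 6311 higher). The cause of these differences was not tested.

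The 1 member call, Spred3, became 0 with an offset of 16, processed signals, the series table, span 0.1, intensity up to 15, separate channels with no replicate block and loess on spots above background, and 0 to 0 with 1 array left out. It became 6 with median centring (1 lower, 5 higher) and 8 with centring on the tested probes (6 lower, 2 higher). The 2 pathway calls became 1 with an offset of 16, no background subtraction, separate channels and loess on spots above background, 1 to 1 with 1 array left out, 0 with processed signals, the series table, span 0.1 and intensity up to 15, 5 with an intensity trend and at adjusted p under 0.10, 78 with median centring and 43 with centring on the tested probes. Signs turned with median centring, which left the tested-probe medians above 0, for Spry1 (0.28), both Spry2 probes (0.44 and 0.13) and 2 Spred1 probes (0.10 and 0.025). They turned with centring on the tested probes for 1 Spry2 probe (0.12) and Spry3 (-0.30), and averaging the 3 Spred1 probes gave -0.063, against 0.08 for AK017680 alone. With centring on the tested probes in place of loess, Spred3 was at -0.54 and Spry1 at -0.04. In the main processing they were at -0.44 and -0.20, with a tested-probe median of 0.010. Of 234 values of single member probes under an alternative, 207 kept their sign and their side of the threshold. That count includes settings, such as Aquantile between arrays, that leave a ratio as it was.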
